A study of Homo sapiens with 6 samples.

Results

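Amino acid transporters of the plasma membrane and the lysosome were examined in 786-O, a long-established cell line derived from a human renal cell carcinoma. The set was defined by gene symbol alone: protein-coding genes of the deposited count table named SLC3A2 or belonging to the SLC1, SLC7, SLC36, SLC38 or SLC43 families. This gave 39 genes of 58735 in the table. Groups of 3 libraries each were compared, sh-CBX7 cells (carrying a short hairpin RNA against CBX7, a chromobox protein of Polycomb repressive complexes) and sh-Control cells (carrying a control hairpin). No other treatment is stated for either group, and the labels do not give the hairpin sequence, say whether the cells were clonal, or state that replicates came from separate cultures. P-values therefore measure only the spread between these libraries, which may be technical.

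Mammalian cells move amino acids with carriers that differ in substrate and in the ion that drives them. SLC1 carriers take up glutamate or exchange small neutral amino acids such as glutamine with sodium. The SLC7 light chains mostly work as exchangers bound by a disulfide bridge to a heavy chain, SLC3A2, which brings them to the cell surface. SLC38 carriers accumulate glutamine and other small neutral amino acids with sodium. Some SLC36 carriers move small neutral amino acids with protons, and SLC43 members include facilitators for large neutral amino acids. Clear cell renal carcinoma cells are known for avid use of glutamine and for dependence on cystine uptake for glutathione.

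Total counts ran from 16384151 to 18868874 per library. CBX7 had 7.44 ± 0.669 CPM (counts for every 1000000 reads counted, after TMM scaling) in sh-CBX7 libraries and 12.2 ± 0.983 CPM in sh-Control libraries (SD, n = 3 each), and the fitted log2 difference was -0.71 (SE 0.13; edgeR adjusted p = 5.41e-05), so the transcript was reduced and not removed. The renal transcription factor PAX8 was expressed at 225.6 CPM in sh-CBX7 and 282.2 CPM in sh-Control, and the keratin KRT8 at 1175 and 864.6 CPM in the same order. Of 12 renal tubule and clear cell carcinoma markers 10 were tested. Of these 6 rose and 2 fell, beside 26.1% of all tested genes that rose and 27.2% that fell. The brush border peptidase MME averaged 30.8 CPM in sh-CBX7 and 17.5 CPM in sh-Control and CUBN, a tubular uptake receptor, 0.904 and 0.191 CPM, while LRP2 and NDUFA4L2 were near 0 in both groups. The summed level of 6 immune markers was 0.955 to 2.03 CPM in sh-CBX7 and 1.21 to 2.10 CPM in sh-Control, with PTPRC and CD3E at 0. The 6 fibroblast markers summed to 11.1 to 12.9 CPM in sh-CBX7 and 11.1 to 12.6 CPM in sh-Control, but within them LUM rose (8.35 CPM in sh-CBX7 and 5.04 CPM in sh-Control) and COL1A1 (1.57 and 3.24 CPM) and PDGFRA (0.276 and 1.05 CPM) fell. The 5 endothelial markers summed to 3.99 to 5.25 CPM in sh-CBX7 and 2.53 to 3.50 CPM in sh-Control, with PECAM1 higher in sh-CBX7 and CDH5 at 0. The part of these markers in the results on transporters was not tested. sh-Control replicate 1 stood apart from its group, with a chi-square per gene of 9.23 and 5.78 against the other sh-Control libraries and 2.85 to 4.32 for the remaining pairs within groups. In bulk libraries, fewer cells of a kind and less RNA per cell cannot be told apart.

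The transporters divided into genes that rose and genes that fell, in nearly equal number and within each family that had several tested members. Of 39 genes, 23 passed the filter on low counts (filterByExpr) and were tested. With edgeR's quasi-likelihood test adjusted over all 14573 tested genes, 7 were higher in sh-CBX7, 8 were lower and 8 did not pass an adjusted p of 0.05. The 15 called members were 65.2% of those tested, beside 53.3% of all tested genes, 26.1% being higher and 27.2% lower. Of the tested protein-coding genes alone, the class that all members belong to, 56.7% were called. The median log2 fold change was 0.03 over the 23 transporters and -0.006 over all tested genes. Groups did not overlap for 18 of the 23, beside 59.0% of all tested genes. Changes were moderate: SLC1A1 was the 1 called member that moved by at least 1 on the log2 scale. Summed over all 39 genes, the level was 2614 to 2697 CPM in sh-CBX7 and 2694 to 2852.5 CPM in sh-Control, ranges that overlapped slightly.

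**Figure D1:**
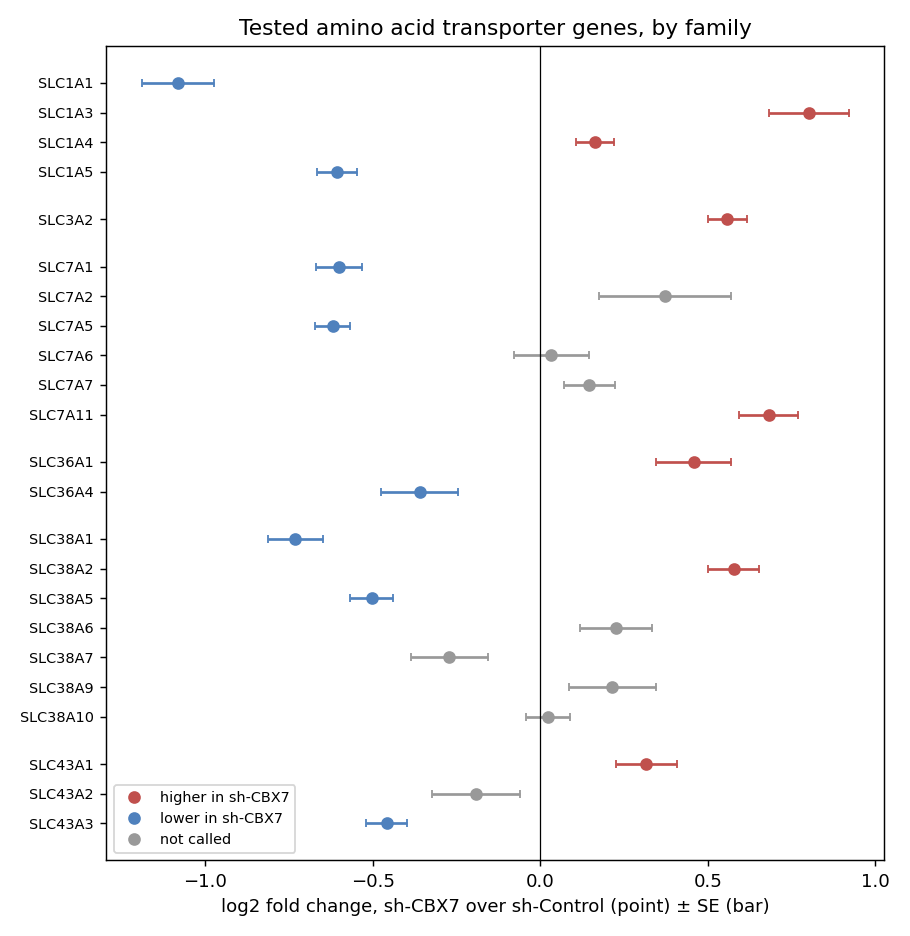
Log2 fold change (sh-CBX7 over sh-Control, x axis) of the 23 tested transporter genes, with families separated by gaps from SLC1 at the top to SLC43 at the bottom; points are edgeR estimates and bars the SE. Called genes lie on both sides of 0, from -1.08 for SLC1A1 to 0.80 for SLC1A3, and the grey points are the 8 genes that were not called.

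The heavy chain SLC3A2 (ENSG00000168003; GRCh38 chromosome 11, 62856102 to 62888875, plus strand) and its main light chain SLC7A5 (ENSG00000103257; chromosome 16, 87830023 to 87869488, minus strand) moved in opposite directions. Together they form the LAT1 exchanger, which imports leucine and other large neutral amino acids. SLC3A2 had 785, 745 and 763 CPM in sh-CBX7 libraries, against 566, 487 and 503.9 CPM in sh-Control libraries. Every sh-CBX7 library was above every sh-Control library, and SLC3A2 rose by 0.56 on the log2 scale (SE 0.06, edgeR adjusted p = 2.57e-08). SLC7A5 had 272, 257 and 267 CPM in sh-CBX7, against 420, 402 and 400 CPM in sh-Control. All 3 sh-CBX7 libraries were lower, and the log2 fold change was -0.62 (SE 0.05, edgeR adjusted p = 1.45e-09). Pseudogenes of SLC7A5 could share its reads; SLC7A5P1 held 117 counts over the 6 libraries and SLC7A5P2 held 0, beside 34941 for SLC7A5.

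Windows upstream of transcription starts are shown for SLC3A2 and SLC7A5, because these chains of a single transporter moved apart. A window of SLC1A3 is shown for the rarest of the motifs searched, which SLC1A5, not shown, also held. Each window is the 250 bases before a RefSeq start on GRCh38.p14, 5' to 3' on the gene's strand; SLC3A2 and SLC1A3 have further RefSeq starts, and which start these cells used was not measured. Capitals mark matches on either strand to TGATGNAA (core of the amino acid response element), CACGTG (E-box) or TGACNNNGC (core of the antioxidant response element).
SLC3A2, chr11:62881449-62881698, plus strand: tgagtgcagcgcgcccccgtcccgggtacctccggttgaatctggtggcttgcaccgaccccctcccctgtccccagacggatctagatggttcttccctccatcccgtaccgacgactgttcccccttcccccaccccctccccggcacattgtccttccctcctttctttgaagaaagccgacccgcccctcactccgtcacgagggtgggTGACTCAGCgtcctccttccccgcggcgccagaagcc
SLC7A5, chr16:87869508-87869757, minus strand: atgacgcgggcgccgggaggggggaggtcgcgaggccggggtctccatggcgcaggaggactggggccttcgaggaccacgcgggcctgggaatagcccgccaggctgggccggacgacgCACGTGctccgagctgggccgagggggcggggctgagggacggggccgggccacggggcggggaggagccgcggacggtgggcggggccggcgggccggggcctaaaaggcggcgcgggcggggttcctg
SLC1A3, chr5:36596338-36596587, plus strand: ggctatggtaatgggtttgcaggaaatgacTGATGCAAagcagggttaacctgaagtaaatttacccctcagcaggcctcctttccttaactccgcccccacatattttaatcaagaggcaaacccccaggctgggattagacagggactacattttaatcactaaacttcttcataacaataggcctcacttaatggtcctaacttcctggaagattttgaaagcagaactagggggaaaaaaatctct

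The SLC3A2 window held TGACTCAGC, starting 37 bases before the start, and 31 of its bases are annotated as exon in GENCODE 29. The SLC7A5 window held an E-box starting 130 bases before the start, and the SLC1A3 window held TGATGCAA. That SLC1A3 window ends upstream of the deposited start of the gene, 36606355, and the other SLC1A3 windows did not hold TGATGNAA. The SLC3A2 window shown lies inside the gene, downstream of its deposited start, 62856102. The other SLC3A2 windows, including that at the deposited start, held no match. Of the 23 tested members, 20 had a RefSeq window that could be searched on the chromosomes used here. SLC7A2, SLC7A11 and SLC43A3 had none, so whether they hold these motifs was not examined. TGATGNAA was present in 2 of these 20 genes, SLC1A3 and SLC1A5, which moved in opposite directions, and in 3.9% of 27305 genes with a window. CACGTG was present in 6 of 20, against 7.7% of all genes: SLC1A5, SLC7A5 and SLC38A5 were lower in sh-CBX7, SLC36A1 and SLC43A1 were higher and SLC7A7 was not called. TGACNNNGC was present in 6 of 20, against 13.2% of all genes, and these included SLC3A2, which rose, and SLC7A1, which fell. A gene counted when any of its windows matched, and many of these members have several windows, so the shares of genes are not a like comparison. Per window, the motifs were present in 3.1%, 6.3% and 10.9% of all 35116 windows in the same order, and enrichment was not tested. These motifs do not overlap each other in the windows shown. All matches of SLC1A5, SLC36A1 and SLC7A7 lay inside the deposited bounds of these genes. The SLC1A5 window just upstream of the deposited gene held no match. A match is only a match of letters, and binding was not measured.

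Other light chains of SLC3A2 did not follow SLC7A5. SLC7A11 (chromosome 4, 138164097 to 138242349), which with SLC3A2 forms the cystine and glutamate exchanger, had 67.3, 72.2 and 70.4 CPM in sh-CBX7, against 35.5, 46.4 and 48.9 CPM in sh-Control. The groups did not overlap, sh-Control replicate 1 was the lowest library, and SLC7A11 rose by 0.68 on the log2 scale (SE 0.09, edgeR adjusted p = 8.22e-07). Without that library the log2 fold change was 0.56. SLC7A7 and SLC7A6, the light chains of the exchangers of cationic for neutral amino acids, were not called. SLC7A7 had 44.7, 46.1 and 41.0 CPM in sh-CBX7 and 41.5, 37.2 and 40.6 CPM in sh-Control (log2 fold change 0.15, edgeR adjusted p = 0.114). SLC7A6 averaged 14.9 ± 1.58 CPM in sh-CBX7 and 14.6 ± 0.765 CPM in sh-Control (SD, n = 3 each; edgeR adjusted p = 0.822). SLC7A6 shares 3371 of its 7588 exon bases with SLC7A6OS on the opposite strand, and since the strand setting of the counting is not given in the sources used here, their reads may be mixed. SLC7A8 had 2 to 8 counts per library and SLC7A10 had 0 in each, so neither was tested.

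Levels per length show what this did to the balance of the chains. Dividing CPM by the deposited length (the merged exons of each gene) put SLC3A2 at 147.6 ± 3.84 CPM per kb in sh-CBX7 and 100.2 ± 8.01 CPM per kb in sh-Control (SD, n = 3 each). SLC7A5, SLC7A6, SLC7A7, SLC7A8, SLC7A10 and SLC7A11 together had 73.8 ± 1.06 CPM per kb in sh-CBX7 and 100.1 ± 1.97 CPM per kb in sh-Control. The ratio of this light chain sum to SLC3A2 was 0.495, 0.507 and 0.499 in the sh-CBX7 libraries, against 0.937, 1.05 and 1.02 in the sh-Control libraries. Light chain transcripts per heavy chain transcript were thus lower in each sh-CBX7 library than in any sh-Control library, a description for which no test was made. Within the light chain sum, SLC7A5 made up 75.8% ± 1.29 in sh-CBX7 and 85.8% ± 0.768 in sh-Control. The share of SLC7A11 was 9.84% ± 0.484 in sh-CBX7 and 4.52% ± 0.812 in sh-Control, and that of SLC7A7 was 11.6% ± 0.713 and 7.73% ± 0.345. Transcript lengths in use can differ from merged exons, and protein was not measured.

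**Figure D2:**
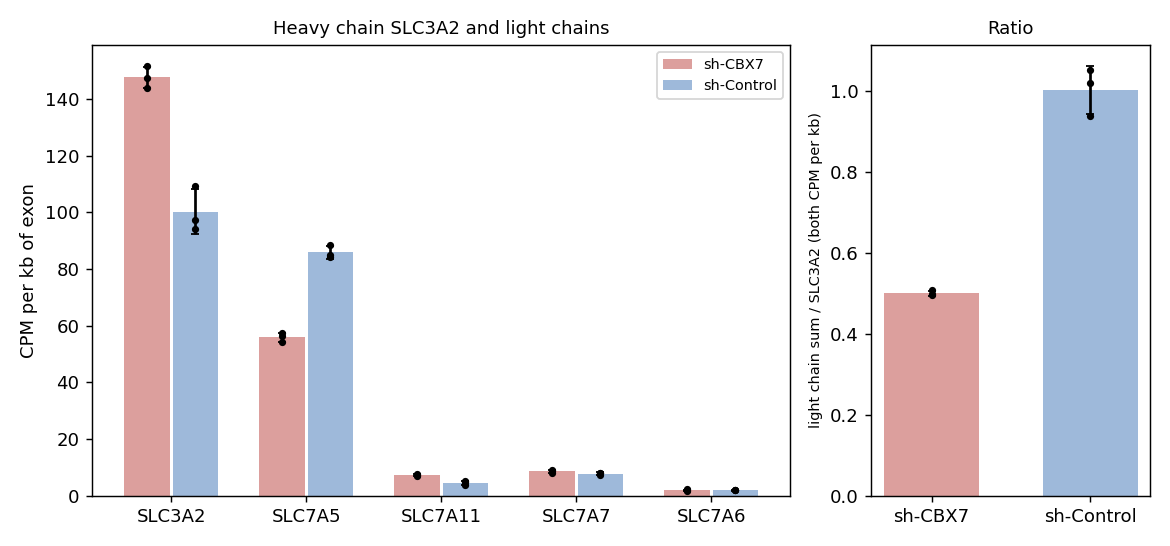
Left, level in CPM per kb of exon of the heavy chain SLC3A2 and the light chains SLC7A5, SLC7A11, SLC7A7 and SLC7A6, with sh-CBX7 to the left of sh-Control; right, the ratio of the light chain sum to SLC3A2. Bars are means, error bars the SD and points the 3 libraries of a group; SLC3A2 is higher and SLC7A5 lower in sh-CBX7, and the ratio is 0.495 to 0.507 in sh-CBX7 and 0.937 to 1.05 in sh-Control.

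Among the SLC1 carriers all 4 tested members were called, 2 in each direction, beside 53.3% of all tested genes called. The glutamate carrier SLC1A1 (chromosome 9, 4490444 to 4587469), known from the kidney tubule, had 13.5, 16.3 and 17.5 CPM in sh-CBX7, against 31.6, 37.1 and 31.2 CPM in sh-Control. It was 2.12-fold lower in sh-CBX7, with groups far apart (log2 fold change -1.08 with an SE of 0.11; edgeR adjusted p = 1.57e-08). The related glutamate carrier SLC1A3 (chromosome 5, 36606355 to 36688334), best known from astrocytes, had 16.5, 21.1 and 21.0 CPM in sh-CBX7, against 10.9, 10.6 and 12.1 CPM in sh-Control. It was 1.74-fold higher (log2 fold change 0.80, SE 0.12, edgeR adjusted p = 5.54e-06). Per length, SLC1A1 stood at 3.94 ± 0.516 and SLC1A3 at 3.12 ± 0.418 CPM per kb in sh-CBX7, whereas SLC1A1 stood at 8.32 ± 0.832 and SLC1A3 at 1.79 ± 0.126 CPM per kb in sh-Control. SLC1A1 was above SLC1A3 in every library, by a smaller margin in each sh-CBX7 library than in any sh-Control library.

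SLC1A5 (chromosome 19, 46774883 to 46788594), the sodium-dependent exchanger that is a main entry route for glutamine in tumour cells, had 345, 319 and 321 CPM in sh-CBX7, against 544, 464 and 491 CPM in sh-Control. Each sh-CBX7 library was lower (log2 fold change -0.61, SE 0.06, edgeR adjusted p = 1.59e-08). Its close relative SLC1A4, an exchanger of alanine, serine and cysteine, had 196, 197 and 185 CPM in sh-CBX7 and 173, 168 and 175 CPM in sh-Control. The rise was small (log2 fold change 0.16 with an SE of 0.06; edgeR adjusted p = 0.0171) and the adjusted p was 0.0687, 0.0839 and 0.054 without sh-CBX7 replicate 1, sh-CBX7 replicate 2 or sh-Control replicate 2. SLC1A2 had at most 6 counts in a library, and SLC1A6 and SLC1A7 had 0 in all 6.

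The sodium-coupled SLC38 family held a pair of neighbours that moved apart. SLC38A1 and SLC38A2, accumulative carriers of glutamine and small neutral amino acids, lie on the minus strand of chromosome 12 at 46183063 to 46270017 and 46358189 to 46372867, 88171 bases apart with no protein-coding gene between them. SLC38A1 had 68.3, 67.4 and 67.2 CPM in sh-CBX7, against 93.1, 120.2 and 123.5 CPM in sh-Control. It fell by 0.73 on the log2 scale (SE 0.08, edgeR adjusted p = 1.01e-07). SLC38A2, the carrier that amino acid starvation is known to induce, had 256, 273 and 265 CPM in sh-CBX7, against 148, 195 and 189 CPM in sh-Control. It rose by 0.58 (SE 0.08, edgeR adjusted p = 1.07e-06). In both genes sh-Control replicate 1 was the lowest library of its group, and without it the log2 fold changes were -0.85 for SLC38A1 and 0.46 for SLC38A2. Their neighbour SLC38A4 had 1 to 2 counts in sh-CBX7 libraries and 3 to 7 in sh-Control libraries and was not tested.

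SLC38A5, a carrier of glutamine, serine and glycine that exchanges protons, had 173, 149 and 153 CPM in sh-CBX7, against 238, 216 and 220.2 CPM in sh-Control, without overlap (log2 fold change -0.50, SE 0.06, edgeR adjusted p = 6.69e-07). The remaining tested SLC38 members were not called. SLC38A7, a lysosomal carrier of glutamine and asparagine, had 14.8, 12.02 and 14.1 CPM in sh-CBX7 and 14.8, 16.6 and 17.98 CPM in sh-Control (log2 fold change -0.27, edgeR adjusted p = 0.0519; adjusted p = 0.0394 with the replicate number as a block, 0.0422 without sh-CBX7 replicate 1 and 0.0135 without sh-Control replicate 1). SLC38A9, the arginine sensor of the lysosome that signals to mTORC1, had 12.3, 10.2 and 9.54 CPM in sh-CBX7 and 8.84, 9.90 and 8.90 CPM in sh-Control (edgeR adjusted p = 0.17). SLC38A6 averaged 18.01 ± 1.49 and 15.4 ± 0.959 CPM and SLC38A10 147 ± 6.88 and 144 ± 13.5 CPM in sh-CBX7 and sh-Control (SD, n = 3 each; edgeR adjusted p = 0.0803 and 0.787). SLC38A6 shares 245 exon bases with TRMT5 on the opposite strand. SLC38A3, SLC38A8 and SLC38A11 had at most 3 counts in a library.

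**Figure D3:**
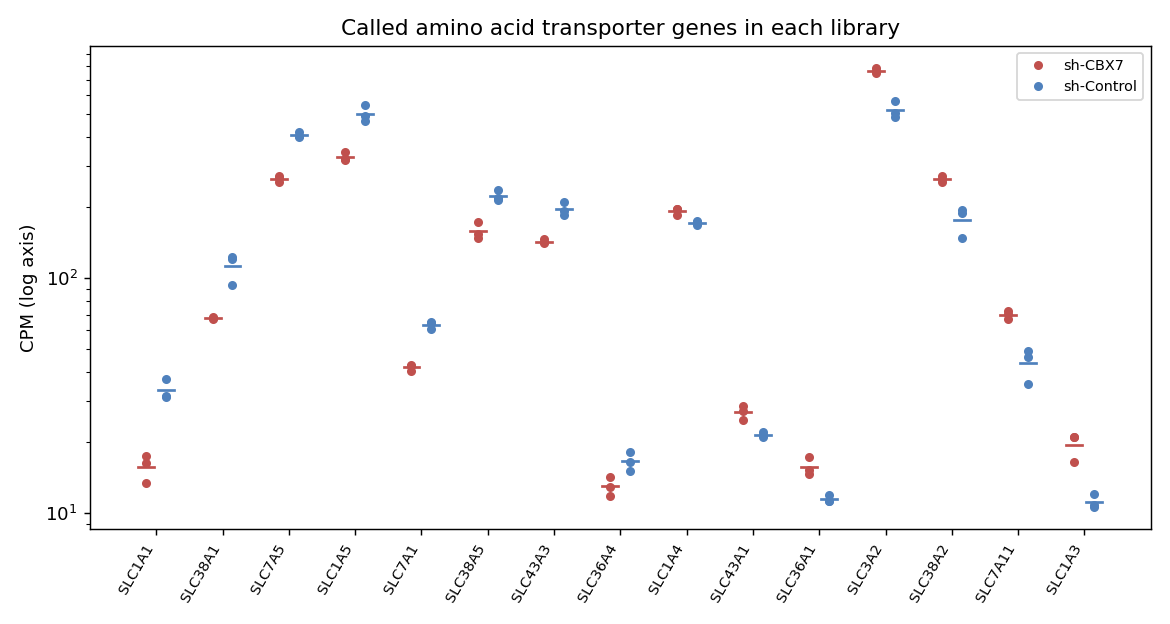
CPM on a log axis of the 15 called transporter genes in each library, ordered by log2 fold change from SLC1A1 at the left to SLC1A3 at the right. Points are single libraries and short lines the group means, with sh-CBX7 to the left of sh-Control for each gene. The groups do not overlap in any of the 15. Within its group, sh-Control replicate 1 is the lowest for SLC38A1, SLC38A2, SLC7A11 and SLC7A1. It is the highest for SLC3A2, SLC7A5, SLC1A5, SLC38A5, SLC43A1 and SLC43A3.

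Of the cationic amino acid carriers SLC7A1 fell and SLC7A2 was not called, while the SLC36 family divided. SLC7A1, the main importer of arginine and lysine in many cells, had 42.4, 40.2 and 42.8 CPM in sh-CBX7, against 60.8, 64.9 and 64.4 CPM in sh-Control. All sh-CBX7 values were lower (log2 fold change -0.60, SE 0.07, edgeR adjusted p = 1.33e-07). SLC7A2, a second carrier of cationic amino acids, was the least abundant tested member, with 3.87, 3.99 and 3.61 CPM in sh-CBX7 and 3.19, 3.08 and 2.58 CPM in sh-Control, and was not called although the groups did not overlap (log2 fold change 0.37, SE 0.20, edgeR adjusted p = 0.115). SLC36A1, which exports small neutral amino acids from the lysosome with protons, had 15.3, 14.7 and 17.3 CPM in sh-CBX7, against 11.3, 11.2 and 11.97 CPM in sh-Control, and rose by 0.46 (SE 0.11, edgeR adjusted p = 0.00152). SLC36A4 had 12.9, 14.3 and 11.9 CPM in sh-CBX7, against 16.6, 15.2 and 18.3 CPM in sh-Control (log2 fold change -0.36, edgeR adjusted p = 0.0107). For SLC36A4 the adjusted p was 0.0569 without sh-CBX7 replicate 3 and 0.0688 without sh-Control replicate 3.

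A second pair of neighbours that moved apart was SLC43A1 and SLC43A3 on chromosome 11, both on the minus strand, 56953 bases apart with RTN4RL2 between them. SLC43A1, a facilitator for leucine and other large neutral amino acids, had 27.2, 24.9 and 28.5 CPM in sh-CBX7, against 22.1, 21.5 and 21.2 CPM in sh-Control (log2 fold change 0.32, SE 0.09, edgeR adjusted p = 0.00598). SLC43A3, which is known as a carrier of purine nucleobases rather than of amino acids, had 142, 146 and 141 CPM in sh-CBX7, against 211, 192 and 186 CPM in sh-Control (log2 fold change -0.46, SE 0.06, edgeR adjusted p = 1.004e-06). SLC43A3 shares 1349 exon bases with AP000781.2 on the same strand, which held 5 counts over the 6 libraries, so reads of the shared part could have been assigned to either gene or to neither. SLC43A2 overlapped between groups, with 9.66, 9.30 and 8.41 CPM in sh-CBX7 and 10.6, 8.85 and 11.9 CPM in sh-Control (edgeR adjusted p = 0.234). The remaining untested members, SLC7A3, SLC7A4, SLC7A9, SLC7A13, SLC7A14, SLC36A2 and SLC36A3, had at most 3 counts in any library, and 5 of the 39 genes had 0 in all 6. A count of 0 over all libraries allows a level of up to 0.0288 CPM, taken as 3 counts and covering counting error only.

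The order of the levels per length differed between the groups at its top. In sh-CBX7 it ran SLC3A2, SLC1A5 (98.5 ± 4.37 CPM per kb), SLC7A5 (55.9 ± 1.57), SLC38A2 (40.1 ± 1.25) and SLC38A5 (39.5 ± 3.25), of which the last pair lay within the spread of the libraries. In sh-Control it ran SLC1A5 (150.03 ± 12.2 CPM per kb), SLC3A2, SLC7A5 (85.9 ± 2.32), SLC38A5 (56.0 ± 3.00) and SLC43A3 (43.5 ± 2.95), with SLC38A2 next at 26.8 ± 3.91. SLC38A2 thus stood level with SLC38A5 in sh-CBX7 and below it in sh-Control.

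Genes that act with these transporters were read from lists, of which up to 4 genes each are named by smallest p. Among 21 other amino acid carriers, 12 were tested, 3 rose and 4 fell (median log2 fold change -0.20), so that 58.3% were called, near the 53.3% of all tested genes. The lysosomal exporter of cationic amino acids PQLC2 averaged 67.5 ± 4.89 CPM in sh-CBX7 and 47.5 ± 3.64 CPM in sh-Control (log2 fold change 0.51). The 3 named carriers of the inner mitochondrial membrane fell: SLC25A22, a glutamate carrier, averaged 26.6 ± 1.77 and 50.5 ± 0.605 CPM in sh-CBX7 and sh-Control (-0.93), SLC25A44, a carrier of branched-chain amino acids, had -0.84 and SLC25A12, which exchanges aspartate for glutamate, had -0.50. All 7 listed partners and turnover factors of transporters were called, 5 higher and 2 lower (median 0.14), beside 53.3% of all tested genes, but 4 were called, 3 higher and 1 lower, without sh-CBX7 replicate 1 or without sh-CBX7 replicate 2. NEDD4L, a ubiquitin ligase, averaged 84.9 ± 2.19 CPM in sh-CBX7 and 48.2 ± 0.999 CPM in sh-Control (log2 fold change 0.82, edgeR adjusted p = 3.39e-10), NEDD4 had 0.48, the chaperone BSG 0.37 and LAPTM4B, a lysosomal protein that binds the LAT1 exchanger, -0.21.

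Of 22 tested enzymes of amino acid synthesis and interconversion, 11 fell and 4 rose (median -0.14), beside 27.2% of all tested genes that fell and 26.1% that rose. With upper quartile factors 7 of these enzymes rose and 11 fell. GOT2, the mitochondrial aspartate aminotransferase, averaged 52.0 ± 1.45 and 151 ± 3.46 CPM in sh-CBX7 and sh-Control (log2 fold change -1.53, SE 0.06, edgeR adjusted p = 3.18e-15). PYCR1, an enzyme of proline synthesis, had a log2 fold change of -0.95 and SHMT1, an enzyme of glycine and serine exchange, -0.84. Of 11 tested genes of glutathione synthesis and use, 5 fell and 3 rose (median -0.32), so that 72.7% were called, beside 53.3% of all tested genes. Glutathione synthetase GSS had a log2 fold change of -0.82, glutathione reductase GSR -0.90 and the ligase subunit GCLM -0.55, while the peptidase ANPEP had 0.44; SLC7A11 rose beside these.

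Some regulators of the amino acid response induce transporter genes when amino acids are scarce. Of 16 listed regulators, 10 rose and 3 fell (median 0.29), beside 26.1% of all tested genes that rose and 27.2% that fell. DDIT3 averaged 73.7 ± 2.88 CPM in sh-CBX7 and 25.5 ± 1.49 CPM in sh-Control, and NUPR1 254 ± 13.0 and 85.7 ± 5.74 CPM in the same order. The pseudokinase TRIB3 had a log2 fold change of 0.90 and the phosphatase subunit PPP1R15A 1.21. Among 35 tested genes of amino acid sensing by mTORC1, 9 rose and 11 fell (median -0.10), and the 57.1% called was near the 53.3% of all tested genes. The GTPase RRAGC averaged 28.8 ± 2.20 CPM in sh-CBX7 and 12.6 ± 1.11 CPM in sh-Control (1.19), the leucine sensor SESN2 had 0.98, the folliculin partner FNIP2 was 2.83-fold higher and the lysosomal scaffold LAMTOR2 -0.69.

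**Figure D4:**
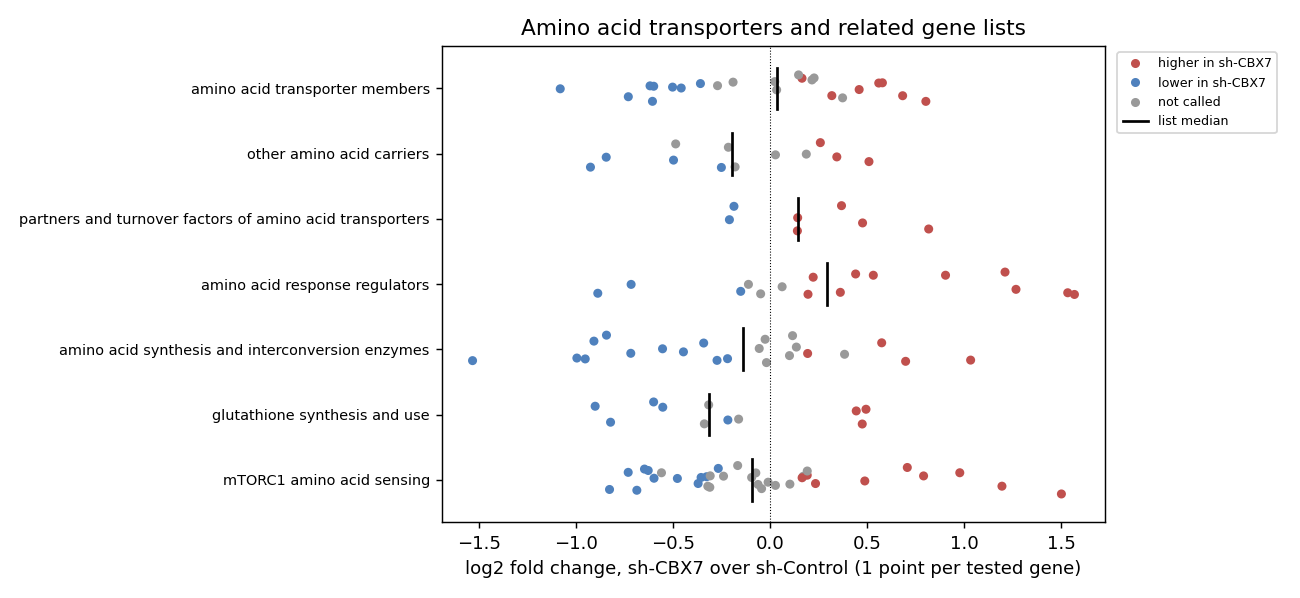
Log2 fold change (sh-CBX7 over sh-Control, x axis) of each tested gene of the transporter set and of 6 related lists; red, blue and grey mark genes higher in sh-CBX7, lower in sh-CBX7 and not called, and black bars are list medians. The transporters lie evenly around 0, with a median of 0.03, the regulators of the amino acid response reach furthest to the right, up to 1.57, and GOT2 among the enzymes lies furthest to the left at -1.53.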

How the data were processed

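Poly-A RNA from 6 libraries of 786-O cells was sequenced after preparation with a directional kit, per the labels' protocols. The deposited table holds raw read counts per gene. The tools listed in the submitters' processing notes are featureCounts 1.5.0-p3, HISAT2 2.0.5, Trimmomatic and FastQC. Their order and strand setting are not given in the sources used here. Those notes name hg19, while all 58735 genes in the deposited table have GENCODE 29 boundaries, those of GRCh38, which is the build given here. Columns named siCBX7 were matched to the sh-CBX7 labels by target and replicate number. Depth was 16384151 to 18868874 counts per library.

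Genes passing filterByExpr were scaled with TMM and compared in an unpaired fit with edgeR 4.0.16 in R 4.3.3 (glmQLFit, glmQLFTest), with Benjamini-Hochberg adjustment over 14573 genes and a threshold of 0.05. The SE is the log2 fold change divided by the square root of F. The procedure was tested on simulated data. CPM values use TMM-scaled library sizes, and mean ± SD is over 3 libraries. Alternatives were DESeq2 1.42.0 and its size factors, limma 3.58.1 voom, upper quartile factors, library size alone, other filters, the replicate number as a block and leaving out each library. All members are named, those with a mean of at least 1 CPM with library values; of each list, up to 4 genes by smallest p. A gene of the enzyme list that this rule names is not reported here. The members and lists were chosen with earlier results of these data known. Sequences came from RefSeq (GRCh38.p14), which held windows for 31 of 39 members.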

Additional observations from a re-analysis of the deposited data

How the results depend on the processing

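Of the 23 tested transporters, 16 kept direction and call under all 14 alternatives. SLC1A4 and SLC36A4 lost the call only in fits that left out 1 library, as given above. SLC38A7 gained it under the replicate block and without sh-CBX7 replicate 1 or sh-Control replicate 1, SLC38A6 (adjusted p = 0.0339) and SLC7A7 (0.0346) under upper quartile factors, and SLC7A7 also without sh-Control replicate 1 (0.048). Uncalled members changed sign: SLC38A10 without sh-CBX7 replicate 3, sh-Control replicate 2 or sh-Control replicate 3 (range without 1 library -0.023 to 0.103), and SLC7A6 without sh-CBX7 replicate 2 (range -0.0503 to 0.0987). The number of called members ran from 14 to 17 over all alternatives, with 6 to 9 higher and 7 to 9 lower, and was 16 with the replicate number as a block. Without 1 library, 4 to 6 of the 7 partners and turnover factors were called; the cause was not tested. Of these, 3 to 5 were higher and 1 to 2 lower. The enzymes that rose numbered 7 with upper quartile factors and 6 under the replicate block or without sh-Control replicate 1, against the 4 reported. The total called in each other list stayed within 1.5 times the one reported. Over all genes, 6990 to 8098 were called, and scaling moved their median by at most 0.05 (log2). Same-numbered libraries shared deviations at correlations of 0.0553, 0.0614 and 0.0353, each higher than with other numbers, and the labels give no shared batch, so the unpaired fit was kept. Depth limits the low members: the SE was 0.20 for SLC7A2 and 0.05 for SLC7A5.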
